A study of Marchantia polymorpha with 9 samples.

Results

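Gene expression in the Mpb-gata1-1 mutant of the liverwort Marchantia polymorpha was compared with that in the wild type BoGa. The comparison rested on 3 libraries of Mpb-gata1-1 and 3 of BoGa, out of 9 RNA sequencing libraries, and on the genes of chromosomes 1 to 8. These were 20090 of the 20574 genes in the deposited tables, and 14530 of them had enough reads to be tested. Mpb-gata1-1 carries a mutant allele of MpB-GATA1, and BoGa carries no mutation named in the labels. A further mutant, Mpb-gata1-2, with 3 libraries, is used below to show where Mpb-gata1-1 differed from it. Its libraries also entered the scaling and the shared fit behind the comparison with BoGa. All plants were entire thalli, 3 weeks old, from half-strength Gamborg's B5 plates kept at 22 °C and 40 µmol m-2 s-1 in days of 16 h light and 8 h dark, without treatment. Each library pooled 3 plants. The labels do not describe the lesion, and the allele is represented by 1 line, so the mutation and the genetic background of the line cannot be told apart.

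B-class GATA factors are zinc finger transcription factors that bind DNA motifs with GATA at their core. In the flowering plant Arabidopsis thaliana they promote chloroplast development, act in the responses to light and cytokinin, and have several copies that overlap in function. Marchantia is a land plant whose main body, the thallus, is haploid and carries air chambers, rhizoids and cups that shed gemmae, and its sexes are set by a U or a V chromosome.

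Depth was 24823337, 33560379 and 44133919 gene reads in the Mpb-gata1-1 libraries and 33982770, 32662103 and 37333830 in the BoGa libraries. Levels below are read counts scaled to library size (CPM) after TMM scaling. Differences are log2 values of Mpb-gata1-1 minus BoGa from edgeR's quasi-likelihood test, with Benjamini-Hochberg adjustment over all genes of the table, and a gene is called higher or lower at an adjusted p under 0.05. Because the samples were bulk tissue, fewer cells of a type and less RNA per cell cannot be told apart for any gene. The labelled vegetative tissue was checked against genes of other organs, which gave a mixed picture. Of genes listed for sexual organs, MpRKD averaged 156 CPM in Mpb-gata1-1 and 197 CPM in BoGa. For MpCEN1 these means were 104 and 82.0 CPM, so the check does not show that sexual organs were absent. MpPRM, a protamine of sperm, had 2 reads in all Mpb-gata1-1 libraries together and 1 read in BoGa, while MpNOP1, a ubiquitin ligase of air chamber formation, stood at 85.6, 95.5 and 87.0 CPM in Mpb-gata1-1 and at 85.0, 84.0 and 102 CPM in BoGa.

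A set of V chromosome genes also differed between the groups, and all genes of that chromosome were left out of the comparison. Each library was given a V level, the median of the CPM divided by the Mpb-gata1-2 average over the 22 V chromosome genes that averaged 1 CPM or more and had 95% or more of their reads unique. It was 0.0253, 0.0194 and 0.0172 in Mpb-gata1-1 and 0.368, 0.533 and 0.682 in BoGa. The groups did not overlap, and the BoGa libraries differed among themselves. The groups did overlap in the share of all reads on the V chromosome, which was 0.396, 0.175 and 0.392% in Mpb-gata1-1 and 0.286, 0.334 and 0.382% in BoGa. V level and genotype therefore cannot be told apart, and a fit with both holds less information on the difference between the groups. A call lost in that fit does not show that the gene followed the V level. With the V level as a covariate, 734 genes of chromosomes 1 to 8 were called higher and 1084 lower, against 3338 and 3336 without it, whereas the genes changed at least 2-fold numbered 405 and 686, against 465 and 706. Of the 148 genes named in the text, 63 lost their call in that fit without a change of sign. MpABI3A and MpC3HDZ lost their call with a change of sign. Those of the 63 that are given library by library were MpDHN1, MpCAT1, MpSUT4, MpPR6a, MpWRKY11, MpGUN4, MpYUC2, MpSYP4, MpMET, MpAGO9 and MpGCAM1.

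Of the 14530 tested genes, 6674 (45.9%) were called, with 3338 higher (23.0%) and 3336 lower (23.0%). Counts for gene lists below are to be read beside these shares, and a list near 23.0% in a direction does not stand out in it. The median log2 difference over all tested genes was 0.00, and most changes were small. A change under 1.5-fold accounted for 2369 of the higher and 1920 of the lower genes. At least 2-fold differences were found for 1171 genes (8.06%), of which 465 were higher (3.20%) and 706 lower (4.86%). For 7723 genes (53.2%) the 3 libraries of one group did not overlap those of the other, with Mpb-gata1-1 above for 3962 (27.3%) and below for 3761 (25.9%). At the upper end, 136 higher and 105 lower genes differed at least 8-fold. With limma on the authors' TPM values (log2 of TPM plus 1) the split was uneven, with 4436 genes higher and 2315 lower. List counts from another fit are to be read beside the totals of that fit, not beside 23.0%. With the V level as a covariate these totals were 734 higher and 1084 lower. Other scaling factors for the read counts gave 3327 higher and 3328 lower genes (RLE) and 3147 higher and 3468 lower genes (upper quartile). A fit without the Mpb-gata1-2 libraries gave 2772 higher and 2937 lower genes.

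Large changes were mainly found among weakly expressed genes. With the genes split into 4 equal bins by mean level, 309 rose and 507 fell at least 2-fold in the lowest bin, and 9 rose and 22 fell in the highest. The share of genes that fell at least 2-fold ranged over the chromosomes from 2.44% on chromosome 1 to 7.08% on chromosome 5. The corresponding share for rises was 2.07% on chromosome 1 and 3.75% on chromosome 8.

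**Figure D1:**
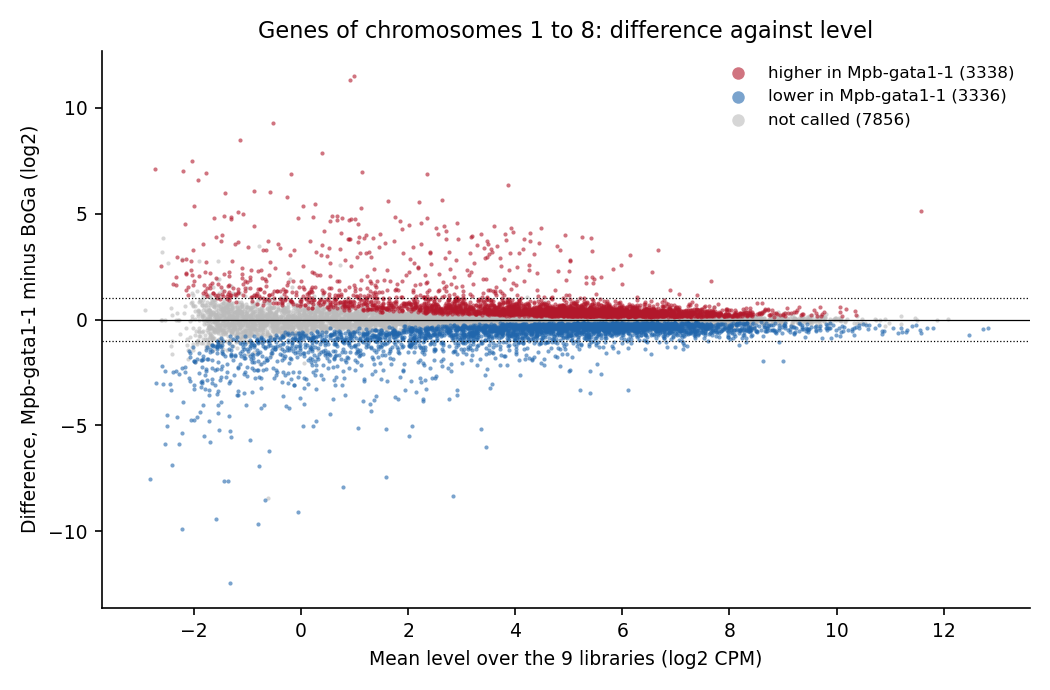
Each point is a tested gene of chromosomes 1 to 8, with its mean level over the 9 libraries (log2 CPM) on the x axis and its log2 difference, Mpb-gata1-1 minus BoGa, on the y axis. Dotted lines mark 2-fold. Higher (3338) and lower (3336) genes were nearly equal in number, and the single point at the far upper right is Mp7g01940.

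A single unnamed gene stood out among the abundant transcripts. It was chosen after its values were seen, since the rule for named genes takes unnamed genes only by the size of the change. Mp7g01940 (chromosome 7, 2581293 to 2588456 in the deposited tables) stood at 12500, 12500 and 13000 CPM in Mpb-gata1-1 and at 334, 364 and 392 CPM in BoGa. All Mpb-gata1-1 libraries lay far above all BoGa libraries, and the log2 difference was 5.12 ± 0.08 (SE, n = 3 per group; edgeR adjusted p = 4.45e-11). It took 1.26, 1.28 and 1.32% of the reads of chromosomes 1 to 8 in Mpb-gata1-1, against 0.0330, 0.0357 and 0.0386% in BoGa. Its reads were unique to it (100%). The genes called at least 2-fold higher together took 2.16, 2.02 and 2.07% of reads in Mpb-gata1-1 and 0.217, 0.219 and 0.221% in BoGa. Without Mp7g01940 they took 0.899, 0.739 and 0.748% in Mpb-gata1-1 and 0.184, 0.183 and 0.183% in BoGa. In Mpb-gata1-2 the gene stood at 6260, 6050 and 6290 CPM, about 1 log2 unit below Mpb-gata1-1 (1.03 ± 0.06, edgeR adjusted p = 1.09e-06).

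Among genes with a mean log2 CPM of at least 7, the largest fall was found in another unnamed gene, Mp4g12520, also chosen after its values were seen. It stood at 276, 272 and 266 CPM in Mpb-gata1-1 and at 1060, 1130 and 992 CPM in BoGa, a fall of 1.96 ± 0.06 (log2, SE; edgeR adjusted p = 2.33e-08). Mp6g19490 was close to it, with 177, 212 and 216 CPM in Mpb-gata1-1 and 921, 798 and 607 CPM in BoGa, a fall of 1.94. The 3 BoGa libraries of this gene were spread more widely than those of Mpb-gata1-1, but the groups did not overlap.

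Among abundant genes with a name, the largest rise was that of MpRLK-Pelle_RLCK-II (Mp3g05350), which encodes a receptor-like cytoplasmic kinase. Its level was 452, 491 and 431 CPM in Mpb-gata1-1 and 110, 117 and 161 CPM in BoGa, with a log2 difference of 1.82 ± 0.13 (SE; edgeR adjusted p = 4.76e-06). In Mpb-gata1-2 the difference from BoGa was 0.10, and the alleles differed (edgeR adjusted p = 5.93e-06). The other named abundant rises were smaller. MpH3.3a, a variant of histone H3, rose by 0.63, MpGID1L8, of a family related to gibberellin receptors, by 0.68, MpCSLD10, a cellulose synthase-like protein, by 0.60, and MpMCA-IIa, a type II metacaspase, by 0.46. MpCAT2, a catalase that removes hydrogen peroxide, was one of the most abundant transcripts to fall, with 1980, 2010 and 2140 CPM in Mpb-gata1-1 and 3140, 3150 and 2830 CPM in BoGa (log2 difference -0.57 ± 0.06, edgeR adjusted p = 4.04e-05). The largest named abundant fall was that of MpDIR5, a dirigent protein of the family that guides phenolic coupling, with 83.1, 87.4 and 85.1 CPM in Mpb-gata1-1 and 205, 208 and 198 CPM in BoGa, a fall of 1.26. MpDAHP, the entry enzyme of the shikimate pathway, fell by 0.80, with 241, 238 and 214 CPM in Mpb-gata1-1 and 466, 449 and 288 CPM in BoGa. MpPOD26 and MpLAR-like5 fell by 0.79 and 0.62.

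**Figure D2:**
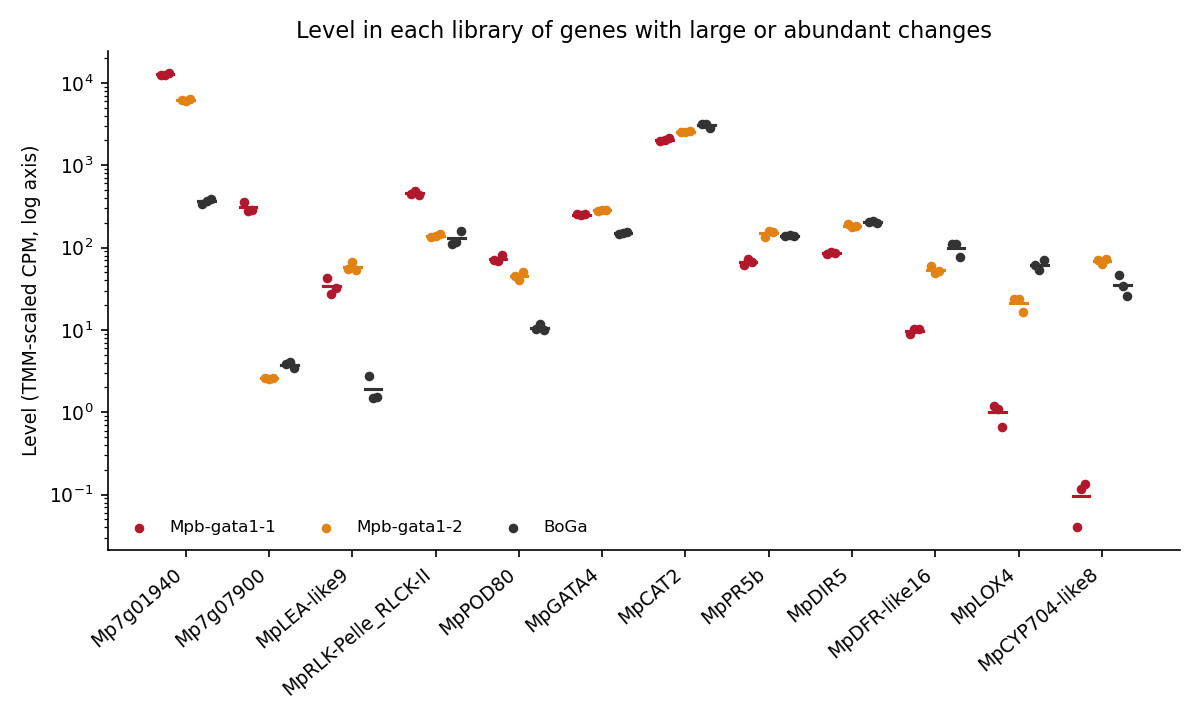
Level of 12 genes (TMM-scaled CPM, logarithmic y axis) in each library of Mpb-gata1-1, Mpb-gata1-2 and BoGa. Each point is a library and each bar the mean of 3. In each of the 12 genes the Mpb-gata1-1 libraries lie apart from the BoGa libraries, and for Mp7g07900, MpRLK-Pelle_RLCK-II, MpPR5b and MpDIR5 the Mpb-gata1-2 points lie near BoGa.

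The GATA genes were examined as a check on the labels. MpGATA4 (Mp7g03490; chromosome 7, 4342060 to 4345887, plus strand) was treated as B-GATA1. This pairing comes from what is known of the study, as the tables hold no such link. It stood at 254, 246 and 255 CPM in Mpb-gata1-1 and at 147, 152 and 154 CPM in BoGa, so every Mpb-gata1-1 library was above every BoGa library (log2 difference 0.74 ± 0.05, edgeR adjusted p = 1.82e-06). A transcript level does not show whether the protein is functional, so it does not check the allele. Of the other GATA genes, MpGATA1 rose by 0.35 and MpGATA5 fell by 0.69, while MpGATA2 differed by -0.25 and did not pass (edgeR adjusted p = 0.211). Reads of MpGATA2 and MpGATA5 are less certain, as both overlap a gene of the same strand.

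Genes for late embryogenesis abundant (LEA) proteins, which protect membranes and proteins in drying cells, formed the group with the most rises. Of 64 tested members 48 were higher and 4 lower, against 23.0% in each direction among all tested genes, and the median log2 difference was 1.97, against 0.00. At least 2-fold rises were found for 38 of them. Most started from low levels in BoGa. MpLEAL6 stood at 24.8, 17.0 and 19.1 CPM in Mpb-gata1-1 and at 1.40, 1.29 and 1.23 CPM in BoGa, a rise of 3.95 ± 0.16 (log2, SE; edgeR adjusted p = 1.15e-07). MpLEA-like9 stood at 42.3, 27.1 and 32.4 CPM in Mpb-gata1-1 and at 2.75, 1.48 and 1.53 CPM in BoGa, a rise of 4.14.

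The first Mpb-gata1-1 library had the highest level of the 3 in 45 of the 48 higher LEA genes, and the second had the lowest in 43. The size of the LEA rise thus varied within the mutant. Leaving out a library at a time still gave 44 to 48 higher members. A fit with the V level added left 20 higher and 3 lower. The whole family together took 0.234, 0.204 and 0.211% of reads in Mpb-gata1-1, against 0.136, 0.139 and 0.136% in BoGa. The abundant MpLEA-like6 rose by 0.54 with 85.4% unique reads, and MpLEA-like58 and MpLEA-like29 fell by 0.44 and 1.05. These last genes were named after their values were seen.

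The list of desiccation and lipid droplet genes had 5 tested members, of which 3 were higher and 1 lower, and none was called with the V level as a covariate. The dehydrin genes MpDHN1 and MpDHN3 rose by 2.18 and 0.64, and MpDHN2 fell by 0.47. MpDHN1 stood at 38.2, 23.1 and 29.8 CPM in Mpb-gata1-1 and at 8.60, 5.87 and 5.52 CPM in BoGa. MpCALEOSIN, a protein of lipid droplets, rose by 3.81. Of 23 tested redox enzymes 5 were higher (21.7%) and 7 lower (30.4%), against 23.0% in each direction among all tested genes. With the V level as a covariate 1 was higher and 3 were lower. MpCAT1, the other catalase gene, rose by 3.98, with 5.92, 3.01 and 3.96 CPM in Mpb-gata1-1 and 0.329, 0.283 and 0.191 CPM in BoGa, whereas MpCAT2 was lower and far more abundant. MpDHAR4, a dehydroascorbate reductase, rose by 2.35, and the monodehydroascorbate reductase gene MpMDHAR3 fell by 1.11.

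Genes for the synthesis and signalling of abscisic acid (ABA), the hormone of drought responses, moved little. Of 12 tested, 5 were higher and 2 lower, with a median of 0.00. The signalling factors MpABI3A and MpABI5A rose by 0.41 and 0.25, and MpABA4, which acts in the synthesis of ABA precursors, fell by 0.41. MpCYP707-like, of the family that breaks down ABA, rose by 0.38. None of the 5 rises was called with the V level as a covariate. A rise in 3 of the 12 was left without BoGa replicate 2 or without Mpb-gata1-1 replicate 1.

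Genes of plant defence were lower more often than higher. The list of pathogenesis-related proteins had 27 tested members, and 19 of them were lower and 4 higher, with a median of -1.05. MpPR5b, a thaumatin-like protein, stood at 62.0, 73.3 and 67.1 CPM in Mpb-gata1-1 and at 139, 142 and 138 CPM in BoGa, a fall of 1.05 ± 0.08 (log2, SE; edgeR adjusted p = 4.39e-06). MpPR1m fell by 1.04, with 32.7, 34.6 and 34.2 CPM in Mpb-gata1-1 and 77.7, 62.0 and 69.5 CPM in BoGa. The proteinase inhibitor gene MpPR6a stood at 0.760, 0.789 and 0.760 CPM in Mpb-gata1-1 and at 6.12, 20.7 and 6.56 CPM in BoGa, where the second library was highest. MpPR15c, a germin-like gene with 86.5% unique reads, fell by 5.02. Many members were weakly expressed: the stricter filter on low counts left 5 lower and 3 higher, and the V level as a covariate left 8 lower and none higher.

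WRKY factors regulate defence, and of 13 tested 7 were lower and none higher, with a median of -0.43. No member rose at an unadjusted p under 0.05 or with DESeq2 either. MpWRKY11 stood at 470, 478 and 466 CPM in Mpb-gata1-1 and at 608, 605 and 692 CPM in BoGa, a fall of 0.43. MpWRKY14 and MpWRKY6 fell by 1.62 and 1.87, and MpWRKY8 by 0.87 with 49.9% unique reads. With the V level as a covariate 1 WRKY gene was lower and 1 higher, and without BoGa replicate 3 there was also 1 higher. Among 21 NBS-LRR genes, which encode intracellular immune receptors, 8 were lower (38.1%) and 4 higher (19.0%), beside 23.0% in each direction among all tested genes. These counts were 3 and 3 when the V level was a covariate, and 2 were higher without Mpb-gata1-1 replicate 2 or 3. MpNBS-LRR20 stood at 1.64, 1.46 and 1.14 CPM in Mpb-gata1-1 and at 7.38, 10.2 and 14 CPM in BoGa, a fall of 2.92, while MpNBS-LRR1 rose by 0.72. Receptor-like kinases were split, with 18 of 86 higher (20.9%) and 19 lower (22.1%), near the shares among all tested genes. In the fit with the V level 9 were higher and 3 lower.

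Lipoxygenases add oxygen to fatty acids in the first step towards oxylipins. Of 17 tested genes of this group 7 were lower and 3 higher, against 5 and 5 with limma on TPM. Once the V level was added 1 was lower and 2 were higher, and without BoGa replicate 3, 6 were lower and 5 higher. MpLOX4 was nearly lost, with 1.2, 1.11 and 0.670 CPM in Mpb-gata1-1 and 60.6, 52.9 and 69.7 CPM in BoGa, a fall of 6.0 ± 0.23 (log2, SE; edgeR adjusted p = 1.15e-07). In Mpb-gata1-2 it fell by 1.52, and the alleles differed (edgeR adjusted p = 5.3e-07). MpLOX16 fell by 2.45. The abundant MpLOX14 fell by 0.58 in Mpb-gata1-1 and stood 0.28 above BoGa in Mpb-gata1-2, while MpLOX12 rose by 0.72.

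In phenolic metabolism, 39 genes of the phenylpropanoid and flavonoid pathways were tested. Of these, 15 were lower (38.5%) and 9 higher (23.1%), beside 23.0% in each direction among all tested genes, with a median of -0.04. On TPM 11 were lower and 14 higher, in a fit that called 2315 of all tested genes lower and 4436 higher. MpDFR-like16, of the family of dihydroflavonol reductases, stood at 8.91, 10.3 and 10.2 CPM in Mpb-gata1-1 and at 109, 109 and 76.6 CPM in BoGa, a fall of 3.32 ± 0.15 (log2, SE; edgeR adjusted p = 3.36e-07). Its relatives MpDFR-like1 and MpDFR-like6 fell by 1.53 and 0.53. Of 25 chalcone and polyketide synthase genes, which build the carbon skeleton of flavonoids and related compounds, 11 were lower and 4 higher. MpPKS/CHS14 stood at 41.5, 45.5 and 37.1 CPM in Mpb-gata1-1 and at 114, 105 and 79.5 CPM in BoGa, a fall of 1.27. MpPKS/CHS20 fell by 1.57 with 83.1% unique reads, and MpPKS/CHS7 rose by 0.77. The V level as a covariate left 9 lower and no higher phenylpropanoid genes, and 4 polyketide synthase genes were lower and 3 higher.

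Polyphenol oxidases oxidise phenols to quinones. Of 45 tested, 18 were higher and 8 lower, with a median of 0.38. MpPPO10 stood at 36.4, 36.7 and 43.7 CPM in Mpb-gata1-1 and at 14.2, 20.2 and 19.6 CPM in BoGa, a rise of 1.12, against a difference of -0.32 in Mpb-gata1-2. MpPPO56, with 83.2% unique reads, rose by 0.96 in Mpb-gata1-1 and fell by 0.90 in Mpb-gata1-2. MpPPO32 rose by 0.59 and MpPPO52 fell by 1.53. In the fit with the V level 16 were higher and none lower, and the stricter filter left 4 lower.

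Class III peroxidases, enzymes of the cell wall, formed the largest family, and 47 of its 138 tested members were higher and 30 lower. Without Mpb-gata1-1 replicate 3 there were 31 higher members, and 19 were higher once the V level was a covariate. The neighbouring genes MpPOD80 and MpPOD81 changed in opposite directions. MpPOD80, with 87.7% unique reads, stood at 70.5, 67.8 and 80.2 CPM in Mpb-gata1-1 and at 10.2, 11.7 and 10.1 CPM in BoGa, a rise of 2.77. MpPOD81 stood at 0.720, 0.585 and 0.469 CPM in Mpb-gata1-1 and at 8.63, 7.69 and 7.14 CPM in BoGa, a fall of 3.76. MpPOD161 and MpPOD162 fell by 2.30 and 2.67, and MpPOD112 rose by 1.03.

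Cytochrome P450s, which carry out oxidations in many pathways, were lower in 38 (35.5%) and higher in 27 (25.2%) of 107 tested genes. Among all tested genes the share was 23.0% in each direction. Among named genes with a mean log2 CPM of at least 1, the largest fall was in this family. MpCYP704-like8 (chromosome 3) stood at 0.0400, 0.117 and 0.134 CPM in Mpb-gata1-1 and at 46.8, 34.1 and 25.8 CPM in BoGa, a fall of 8.34 ± 0.36 (log2, SE; edgeR adjusted p = 2.27e-07). In Mpb-gata1-2 it was above BoGa by 0.96. MpCYP704-like5 fell by 1.34 in Mpb-gata1-1 and rose by 1.01 in Mpb-gata1-2, and MpCYP829-like12 fell by 2.64. Cupins, a family with germin-like and storage proteins, were lower in 28 and higher in 12 of 64 genes, with a median of -0.27. MpCupin35, with 86.6% unique reads, stood at 0.520, 0.497 and 0.469 CPM in Mpb-gata1-1 and at 8.99, 5.56 and 5.50 CPM in BoGa, a fall of 3.75, and MpCupin16 and MpCupin43 fell by 1.30 and 0.72. In the fit with the V level, 20 cytochrome P450 genes were lower and 4 higher, and 8 cupin genes were lower and 3 higher. Without BoGa replicate 1, 7 cupin genes were higher.

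**Figure D3:**
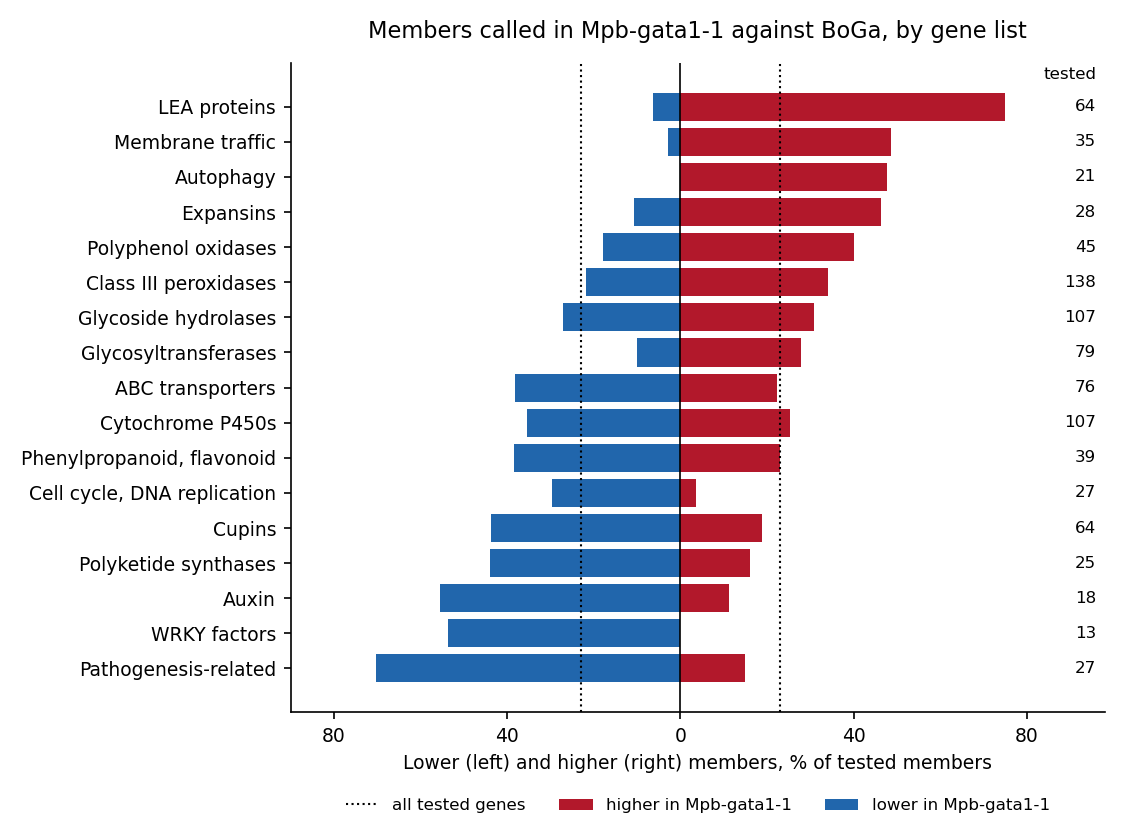
Share of the tested members of 17 gene lists that were called higher (right) or lower (left) in Mpb-gata1-1 against BoGa, in percent. Dotted lines mark the shares among all tested genes, 23.0% on each side, and the number of tested members is at the right. LEA genes had the largest higher share, 48 of 64.

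The genes listed for the chloroplast and for light perception differed by small amounts. In flowering plants, B-class GATA factors are known to act in these processes. Only genes with a symbol entered the lists, so they do not stand for all genes of these processes. Of 8 tested chlorophyll and plastid genes 4 were lower and none higher, with a median of -0.32. These were the genes of magnesium chelatase and its activator, which start the chlorophyll branch. MpGUN4 stood at 105, 87.4 and 86.1 CPM in Mpb-gata1-1 and at 127, 137 and 125 CPM in BoGa, a fall of 0.48. MpCHLI1/2-like, MpCHLD and MpGUN5 fell by 0.39, 0.36 and 0.25. MpGUN5 did not pass without BoGa replicate 1 or without Mpb-gata1-1 replicate 1 or 3 (edgeR adjusted p = 0.0502 to 0.0651). No member rose at an unadjusted p under 0.05 or with DESeq2. Once the V level was a covariate 2 were lower. Of 18 light signalling genes 5 were lower and 1 higher, with 3 lower without BoGa replicate 2 or Mpb-gata1-1 replicate 3 and 8 lower without BoGa replicate 3. MpCOP1, a ubiquitin ligase that represses light responses, stood at 87.7, 91.4 and 84.9 CPM in Mpb-gata1-1 and at 138, 118 and 97.7 CPM in BoGa, a fall of 0.42. MpRUP, a repressor of UV-B signalling, fell by 0.49, and the B-box factor genes MpBBX4 and MpBBX6 fell by 0.40 and rose by 0.82. On TPM, limma did not call MpCOP1 (adjusted p = 0.0636) and called 2 of the light signalling genes lower. Of 5 clock genes 3 were lower and none higher, also at an unadjusted p under 0.05 or with DESeq2. MpGI fell by 0.22, MpPRR by 0.26 and MpELF4 by 0.19. Without Mpb-gata1-1 replicate 3 neither MpGI nor MpPRR passed (edgeR adjusted p = 0.0582 and 0.0584), without Mpb-gata1-1 replicate 1 MpGI did not (0.0576), and without BoGa replicate 2 MpELF4 did not (0.0576). No clock gene was called with limma on TPM.

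Among hormone genes, those of auxin were lower in 10 of 18 and higher in 2, with a median of -0.21. MpYUC2, an enzyme of auxin synthesis, stood at 20, 19.1 and 19.3 CPM in Mpb-gata1-1 and at 26.1, 29.1 and 32.3 CPM in BoGa, a fall of 0.58. MpSHI, a transcription factor, fell by 0.78, while the auxin response factor gene MpARF3 and the auxin exporter gene MpPIN2 rose by 0.35 and 0.55. This count was unstable: 3 auxin genes were lower on TPM, none with the V level as a covariate, 6 without BoGa replicate 1 or 3, 5 without Mpb-gata1-1 replicate 1 and 4 without Mpb-gata1-1 replicate 3. Cytokinin genes were lower in 5 of 10 and higher in 1 (3 and 1 when the V level was a covariate). MpLOG, the enzyme that activates cytokinins, fell by 0.71 (it overlaps a gene on the same strand) and MpCKX2, which breaks them down, by 1.38. The receptor gene MpCHK2 rose by 0.68 and MpHPT, which passes on the phosphate signal, fell by 0.52, with 335, 334 and 332 CPM in Mpb-gata1-1 and 482, 480 and 467 CPM in BoGa. MpHPT fell by 0.10 in Mpb-gata1-2, and the alleles differed (edgeR adjusted p = 0.000101). Of 18 gibberellin-related genes 4 were lower (22.2%) and 1 higher (5.56%), against 23.0% in each direction among all tested genes. The largest fall was that of MpKOL3, a relative of kaurene oxidase, by 1.77. Without BoGa replicate 1 or Mpb-gata1-1 replicate 3, or with the V level as a covariate, 1 of these genes was lower, without BoGa replicate 2 or Mpb-gata1-1 replicate 2, 2 were lower, without BoGa replicate 3, 3 were higher, and on TPM 2 were lower and 5 higher.

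Expansins, which loosen cell walls, were higher in 13 of 28 genes and lower in 3, with a median of 0.43. MpExpansin4 stood at 84.8, 87.0 and 91.6 CPM in Mpb-gata1-1 and at 44.6, 49.0 and 59.9 CPM in BoGa, a rise of 0.78. MpExpansin12, MpExpansin25 and MpExpansin35 rose by 0.92, 0.94 and 0.50, against differences of -0.18, -0.28 and -0.81 in Mpb-gata1-2. MpExpansin4 stood at -0.02 in Mpb-gata1-2, and each of these 4 differed between the alleles (edgeR adjusted p = 2.09e-06 to 0.000472). The V level as a covariate left 7 higher and no lower expansins. Glycosyltransferases were higher in 22 of 79 and lower in 8, close to the background for rises. On TPM 34 were higher, whereas the fit with the V level gave 5 higher and 3 lower. Glycoside hydrolases were split, with 33 of 107 higher (30.8%) and 29 lower (27.1%), and 11 and 13 when the V level was a covariate. In this family MpGH16.17 rose by 4.77 and MpGH3.5 by 4.10. The chitinase genes MpGH19.3 and MpGH19.9 fell by 2.38 and 2.03. MpGH17.22, of the glucanases, fell by 1.64 in Mpb-gata1-1 and stood 0.91 above BoGa in Mpb-gata1-2.

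Some genes of membrane traffic and autophagy were higher by small amounts. Of 35 genes for SNARE proteins, RAB GTPases and other parts of vesicle traffic, 17 were higher and 1 lower, with a median of 0.17. MpSYP4, a syntaxin of the trans-Golgi network, stood at 103, 111 and 105 CPM in Mpb-gata1-1 and at 86.7, 78.1 and 78.1 CPM in BoGa, a rise of 0.40. MpSEC22 and MpRAB6 rose by 0.34 and 0.33. Of 21 autophagy genes 10 were higher and none lower, with a median of 0.13. No autophagy gene fell at an unadjusted p under 0.05 or with DESeq2. MpATG4 and MpATG16 rose by 0.29 and 0.34. The V level as a covariate left 1 higher gene of membrane traffic and no higher autophagy gene. In that fit 1 autophagy gene was lower, and so was 1 without BoGa replicate 3. Fitted on these 2 groups alone, 11 traffic genes were higher, and 6 autophagy genes were higher without Mpb-gata1-1 replicate 2.

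Of 27 cell cycle and replication genes 8 were lower (29.6%) and 1 higher (3.7%), against 23.0% in each direction among all tested genes. MpSMR, of a family that inhibits cyclin-dependent kinases, stood at 21.3, 18.3 and 19.9 CPM in Mpb-gata1-1 and at 38.1, 32.1 and 28.9 CPM in BoGa, a fall of 0.74. MpE2F and MpCDC20_1 fell by 0.51 each, and MpMCM8, with 88.7% unique reads, rose by 0.78. The V level as a covariate left 4 lower cell cycle genes, and 5 were lower on TPM. Chromatin genes were split, with 8 of 34 higher and 8 lower, as among all tested genes. MpMET, the enzyme that maintains CG methylation, stood at 7.96, 7.51 and 7.58 CPM in Mpb-gata1-1 and at 13.9, 13.5 and 16.3 CPM in BoGa, a fall of 0.92. MpDDM1, a chromatin remodeller needed for DNA methylation, fell by 0.80, and the histone deacetylase gene MpHDAC10 rose by 0.70. Of 16 RNA silencing genes 3 were lower (18.8%) and 1 higher (6.25%). MpAGO9, an Argonaute protein, stood at 4.88, 5.55 and 4.31 CPM in Mpb-gata1-1 and at 11.3, 8.79 and 11.3 CPM in BoGa, a fall of 1.10, against -0.02 in Mpb-gata1-2. MpDCL3, of the Dicer-like enzymes, fell by 0.66, and MpRDR5/6-2, of the RNA-dependent RNA polymerases, rose by 0.50. In the fit with the V level no RNA silencing gene and no chromatin gene was lower, and 2 chromatin genes were higher.

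The share of lower genes differed among families of transcription factors, from 13.2% for bHLH factors to 41.2% for homeobox and 44.4% for NAC genes, beside the 53.8% of WRKY genes and the 23.0% of all tested genes. Of 38 bHLH factors 5 were lower and 4 higher, of 13 bZIP factors 2 and 2, of 20 AP2/ERF factors 5 and 1, and of 23 zinc finger genes 6 and 2. Adding the V level left 1, 2, 0 and 2 lower members in these families. MpR2R3-MYB1 stood at 0.560, 0.877 and 0.760 CPM in Mpb-gata1-1 and at 6.69, 8.45 and 15.3 CPM in BoGa, a fall of 3.76, and was 0.61 above BoGa in Mpb-gata1-2. Of all 37 MYB genes 7 were lower and 6 higher, against 2 and 0 in the fit with the V level. Leaving out a library at a time gave 3 to 8 lower and 2 to 9 higher MYB genes, with 2 higher without BoGa replicate 2 or Mpb-gata1-1 replicate 3, 3 higher without Mpb-gata1-1 replicate 2, 9 higher without BoGa replicate 3 and 3 lower without Mpb-gata1-1 replicate 3. Homeobox genes were lower in 7 of 17 and higher in none. At an unadjusted p under 0.05, 1 homeobox gene was higher, and DESeq2 called 1 higher. The V level as a covariate left 1 lower and 1 higher, 4 were lower without Mpb-gata1-1 replicate 2 or 3, and 2 were higher without BoGa replicate 3 and 1 without BoGa replicate 2. MpC3HDZ stood at 125, 147 and 141 CPM in Mpb-gata1-1 and at 173, 174 and 223 CPM in BoGa, a fall of 0.47. NAC factors were lower in 4 of 9 and higher in 1 (3 and 0 when the V level was a covariate), with MpNAC2 falling by 0.82. Of 39 nutrient and sugar transport genes 13 were lower (33.3%) and 6 higher (15.4%). In the fit with the V level 8 were lower and 1 higher. MpSUT4, of the sucrose transporters, rose by 2.93, with 24.6, 14.9 and 17.5 CPM in Mpb-gata1-1 and 2.96, 1.85 and 2.60 CPM in BoGa. MpNPF5, of the nitrate and peptide transporters, stood at 8.24, 8.18 and 7.33 CPM in Mpb-gata1-1 and at 22.3, 21.3 and 20.4 CPM in BoGa, a fall of 1.43, and MpNPF9 and MpNPF29 fell by 1.38 and 0.73. ABC transporters were lower in 29 and higher in 17 of 76 genes (18 and 20 on TPM, 11 and 6 when the V level was a covariate), with MpABCC14 rising by 0.75 and MpABCG35 falling by 0.71.

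Genes known from particular organs formed lists of at most 7 genes, and 45.9% of all tested genes were called. Of 7 genes of gemma cups and gemmae 1 was higher, 1 was lower and 5 did not pass. The higher gene was MpGCAM1, a MYB factor needed to form the cup. MpGCAM1 stood at 19.5, 13.9 and 12.5 CPM in Mpb-gata1-1 and at 4.90, 4.68 and 5.88 CPM in BoGa, a rise of 1.56 ± 0.19 (log2, SE; edgeR adjusted p = 0.000123). The rhizoid gene MpBHLH14 rose by 0.33, and the 4 oil body genes and MpNOP1 did not pass. Of 3 genes of the apical notch 1 was lower, and the peptide hormone gene MpCLE2 fell by 0.28. Of 4 tested genes of sexual organs, MpCEN1, a centrin, rose by 0.34 and MpRKD, an RWP-RK factor of germ cells, fell by 0.33. The others were not called. Of 4 tested sporophyte genes 2 were lower and none higher, with differences from -6.93 to 0.05.

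Some genes were present in one group and nearly absent in the other. At most 3 reads in all Mpb-gata1-1 libraries together and at least 100 in BoGa were found for 11 genes, 4 of which had no read in Mpb-gata1-1. Ratios for them are BoGa over Mpb-gata1-1, relative to total gene reads, with a 95% interval or a floor of 3 reads over the group that covers counting error only. MpPR6c had 1 read in Mpb-gata1-1 and 738 in BoGa, a ratio of 728 (130 to 28800), and 194 reads in Mpb-gata1-2. MpBELL1, a homeobox gene of the family that acts in the zygote, had 1 read in Mpb-gata1-1 and 166 in BoGa, a ratio of 164 (29.0 to 6500), and 175 reads in Mpb-gata1-2. MpMTPSL9, a microbial-type terpene synthase, had 2 reads in Mpb-gata1-1, 103 in BoGa and 24 in Mpb-gata1-2. In the other direction 6 genes had at most 3 reads in BoGa. The neighbours Mp4g00740, Mp4g00750 and Mp4g00760 had 968, 234 and 1110 reads in Mpb-gata1-1 and none in BoGa, at least 327-fold, 79.1-fold and 375-fold higher. In Mpb-gata1-2 these neighbours had 1206, 241 and 1222 reads, so their presence was not particular to Mpb-gata1-1.

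Some of the strongly changed genes lay side by side. Runs of 3 or more neighbouring tested genes that all changed at least 2-fold in the same direction numbered 55, of which 21 were higher and 34 lower, and held 205 (17.5%) of the 1171 genes changed at least 2-fold. The longest was a run of 8 lower genes on chromosome 8, Mp8g16640 to Mp8g16720 (18621805 to 18748702), with differences of -4.56 to -1.09. A pair of runs on chromosome 6 held 7 and 6 higher genes at 2.15 to 5.46, all but 1 of them named as LEA genes. On chromosome 2, the germin-like genes MpPR15c, MpPR15d and MpPR15e and the cupin genes MpCupin12 and MpCupin13 formed a run of 5 lower genes at -5.22 to -1.08. In this run MpPR15d and MpPR15e were weak in BoGa, where the second library was highest. MpPR15d stood at 0.986, 5.56 and 0.383 CPM there and MpPR15e at 1.11, 5.34 and 0.356 CPM. These runs contain gene families with shared reads, and their lowest unique share was 0% in the LEA runs and 80.5% in the PR15 run.

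In 45 of the 55 runs at least 1 member differed between the alleles, and in 18 every member did. Among all tested genes 30.8% differed, so many runs of 3 or more genes would hold such a member at that share alone. The 3 runs that follow were chosen after their values were seen. On chromosome 7, the 5 neighbours Mp7g07870 to Mp7g07910 (9045313 to 9081437) rose by 4.46 to 6.99 in Mpb-gata1-1 and stood between -0.54 and 1.96 in Mpb-gata1-2, and all 5 differed between the alleles. Among them Mp7g07900 stood at 359, 276 and 287 CPM in Mpb-gata1-1 and at 3.88, 4.02 and 3.42 CPM in BoGa (log2 difference 6.35 ± 0.12, edgeR adjusted p = 4.13e-10). On chromosome 8, the 6 neighbours Mp8g15060 to Mp8g15110 rose by 1.37 to 2.23, against -0.10 to 0.87 in Mpb-gata1-2, and 5 differed. On chromosome 6, Mp6g16340 to Mp6g16380 fell by 1.01 to 4.04 in Mpb-gata1-1, against differences of -0.67 to 1.25 in Mpb-gata1-2, and 4 of the 5 differed. The call of Mp6g16380, with 57.8% unique reads, rested on single libraries.

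**Figure D4:**
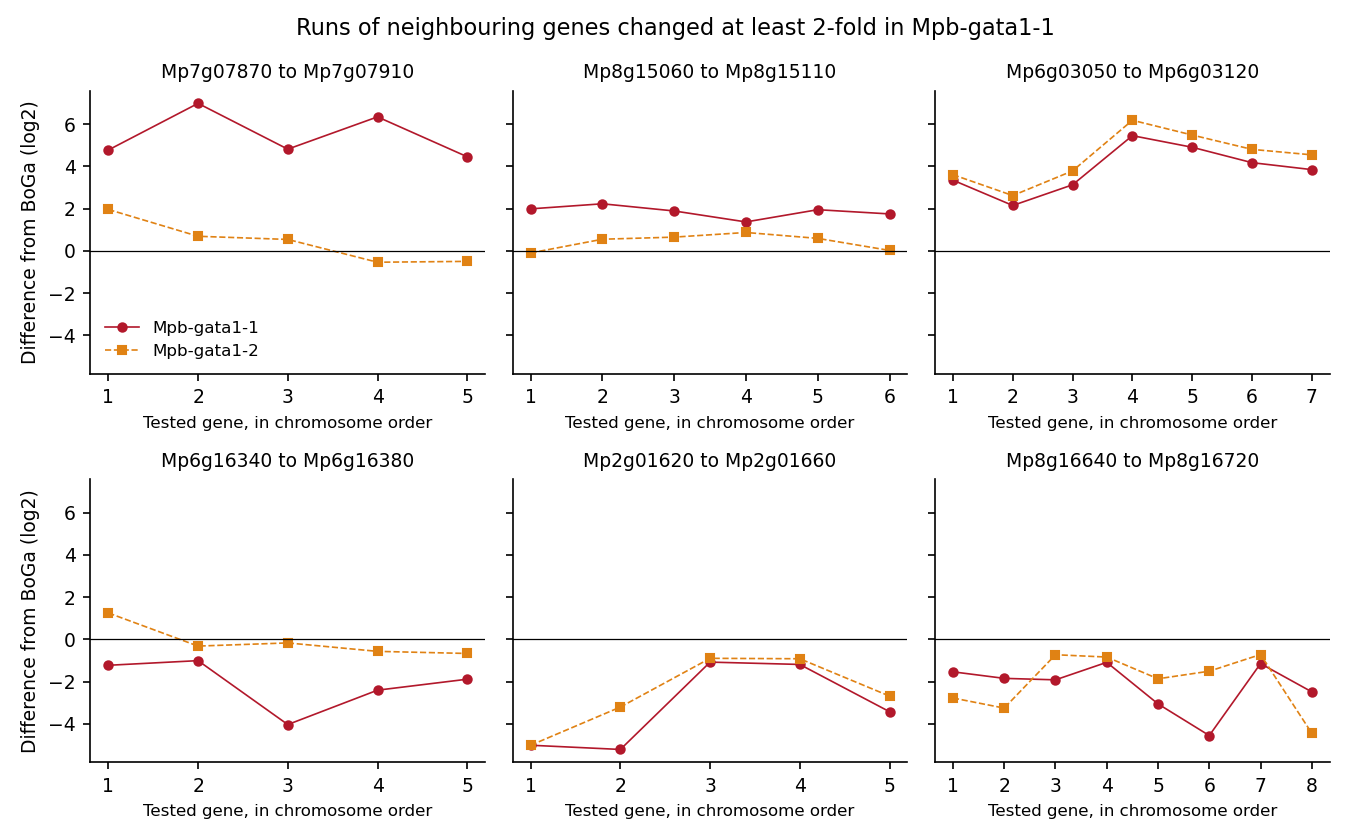
Log2 difference from BoGa of each tested gene, in chromosome order, in 6 runs of neighbouring genes changed at least 2-fold in Mpb-gata1-1 (circles), with Mpb-gata1-2 beside it (squares). The run Mp7g07870 to Mp7g07910 lies at 4.46 to 6.99 in Mpb-gata1-1 and at -0.54 to 1.96 in Mpb-gata1-2.

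Mpb-gata1-1 was also set directly against Mpb-gata1-2, in the same fit. Of the tested genes, 4481 (30.8%) differed, with 2329 higher (16.0%) and 2152 lower (14.8%) in Mpb-gata1-1, and 523 were at least 2-fold higher (3.60%) and 506 at least 2-fold lower (3.48%). With the V level as a covariate, 170 were higher and 159 lower. The V level was 1.03, 0.946 and 1.01 in Mpb-gata1-2, the group it was scaled to. In Mpb-gata1-1 it was 0.0253, 0.0194 and 0.0172. V level and allele therefore cannot be told apart for any gene said here to differ between the alleles. Both mutants were compared with the same BoGa libraries, so their values are given side by side and not as independent measurements. The LEA list had a median of 1.97 in Mpb-gata1-1, against 2.47 in Mpb-gata1-2. Of its members, 32 differed between the alleles. Genes that moved in opposite directions included the unnamed Mp3g09160, which fell by 7.43 in Mpb-gata1-1 to 0.120, 0.0292 and 0.0447 CPM, against 14, 11.1 and 6.92 CPM in BoGa, and rose by 1.06 in Mpb-gata1-2.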

How the data were processed

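RNA was sequenced from 3 libraries each of Mpb-gata1-1, Mpb-gata1-2 and BoGa, with a kit for stranded mRNA according to the protocols in the labels, and groups and replicate numbers were taken from the sample titles. Per the file headers, the deposited values are total and unique gene reads, which are counts without normalization, and TPM and RPKM calculated by the authors. RPKM was not used. The deposited TPM divides by the whole gene region. Not given in the sources used here are the aligner, genome build, handling of shared reads and use of strand. No columns of other samples were present (0).

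Total gene reads of all 20574 genes entered edgeR 4.0.16 (R 4.3.3). The 14667 genes that passed filterByExpr with the group were scaled by TMM and tested with the robust quasi-likelihood test in a fit of all 9 libraries, with no covariate. Adjusted p-values cover all tested genes, and calls were then counted over chromosomes 1 to 8. The biological coefficient of variation was 9.08%. In counts simulated for Mpb-gata1-1 against BoGa (14611 genes tested, 200 changed), the test called 64.1% of the genes changed 1.5-fold, 90% of those changed 2-fold and 93.9% of those changed 4-fold, and 7.26% of its calls were false. Far fewer genes were changed there than the 45.9% called in the data, so these rates need not hold for the calls above. Depth limits the weakest genes: 1 read is about 0.04 CPM in the shallowest Mpb-gata1-1 library. No 2 libraries agreed within sampling noise (chi-square per degree of freedom of at least 8.04). BoGa replicate 3 stood at 41.5 from BoGa replicate 1 and 25.7 from replicate 2. The other pairs within a group stood at 8.04 to 17.6. Correlations of log2 CPM were 0.989 and 0.99 for these BoGa pairs and 0.989 between Mpb-gata1-1 replicates 1 and 2.

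The genes compared and the gene lists were chosen with earlier results of these data known. Symbols came from an MpTak2_v7.1 table by locus number, which matched 17641 genes (85.7%) and gave 3091 a symbol. Lists are patterns of symbols, from which wrongly matched families were removed by name. Named genes are the GATA genes, the 15 largest named rises and falls (mean log2 CPM of at least 1, at least 90% unique reads, groups apart), the same for 6 abundant ones each (at least 7), 3 unnamed ones each, up to 4 called members per list in order of p, organ genes and the named genes of the 5 longest runs. The rule took 248 genes. The text names 148 genes, of which 21 lie outside the rule and were chosen after their values were seen. They are Mp7g01940, Mp4g12520, Mp6g19490, 3 genes without BoGa reads, 3 LEA genes and 12 members of runs. MpABA4, MpCYP707-like, MpDFR-like1, MpLEA-like6, MpMCM8 and MpWRKY8 overlap a gene of the opposite strand, which makes their counts uncertain.

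The analysis was repeated with DESeq2 1.42.0, with RLE or upper-quartile factors, without a filter, with a stricter one (3 libraries with 1 CPM or more, mean log2 CPM 1 or more), with the compared groups alone, with only genes of chromosomes 1 to 8, unique reads, the replicate number as a block, the V level as a covariate, an adjusted p under 0.01, limma 3.58.1 on log2 of TPM plus 1 or 0.1, and leaving out each library of either group.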

Additional observations from a re-analysis of the deposited data

Results flagged for a closer look

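The deposited tables also hold genes outside chromosomes 1 to 8, and some of these were above their level in BoGa. Of 87 tested genes on unplaced scaffolds, 30 were called higher and 11 lower in Mpb-gata1-1 (edgeR's quasi-likelihood test, adjusted p under 0.05). Of 50 tested genes of the V chromosome, 1 was called higher and 30 lower. These genes were left out of the counts of called genes in the report.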

How the results depend on the processing

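With the V level as a covariate, 734 genes were higher and 1084 lower than in BoGa, and 170 were higher and 159 lower than in Mpb-gata1-2. The V level did not overlap between the groups, so this fit holds less information on their differences than the main fit. The cause of the loss was not tested. At an adjusted p under 0.01, 2141 genes were higher than in BoGa, and 1376 were higher and 1190 lower than in Mpb-gata1-2. The stricter filter, which tests fewer weakly expressed genes, left 243 genes at least 2-fold higher and 330 at least 2-fold lower, and limma on log2 of TPM plus 1 gave 329 at least 2-fold lower. Leaving out a library at a time gave 2684 to 3489 higher and 2664 to 3484 lower genes, 429 to 518 and 698 to 777 at 2-fold, and 1777 to 2955 higher and 1534 to 2546 lower than in Mpb-gata1-2. Of the genes named, MpGATA2, MpABI3A and MpC3HDZ changed sign with the V level as a covariate (0.61, -0.03 and 0.07, none called). MpNOP1, not called, changed sign in that fit (0.41), on TPM with either pseudocount (0.08) and when libraries were left out (-0.07 to 0.08), and a further 63 genes lost their call with the V level. Mp6g16380 did not pass without BoGa replicate 1 or 2 or Mpb-gata1-1 replicate 1 or 3 (edgeR adjusted p = 0.0531 to 0.106). Same-numbered libraries did not deviate together (r of -0.116 to -0.0551), so the numbers do not pair them. The replicate block gave 3092 higher and 3117 lower genes and 458 and 697 at 2-fold against BoGa, and 2094 higher and 1918 lower against Mpb-gata1-2. The other alternatives kept these counts within 1.5 times.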
